A study of Arabidopsis thaliana with 12 samples.

Results

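In a ChIP-seq map of the histone variant H2A.Z, made from rosettes of *Arabidopsis thaliana* at 21 days, 2656 of the 22638 wild-type H2A.Z islands lay outside every stretch of a gene in which the study counted fragments. An island is a run of 200-bp windows with more ChIP than input reads. The members were chosen by position alone: an island of the merged wild-type list belonged to the set if it shared no base pair with any of the H2A.Z gene regions, which are stretches of at least 200 bp shared between a gene and an island of either genotype. The other 19982 islands held at least 1 such region. The groups were wild type and *ref4-3*, both in the Columbia background (Col-0), with H2A.Z, H3K27me3 (trimethylation of lysine 27 of histone H3) and input taken in 2 libraries each. *ref4-3* is a semidominant point mutation of *MED5b*, which encodes a subunit of the Mediator tail module. Each library came from whole rosettes, so it averages over all leaf cell types.

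H2A.Z replaces the ordinary histone H2A in some nucleosomes and is placed by the SWR1 remodelling complex. In Arabidopsis it is known at the first nucleosomes of genes, and across the bodies of genes that respond to environment or development. H3K27me3 is set by Polycomb repressive complex 2 and marks developmental genes that are kept silent. Both marks often occur over the same genes in plants.

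The members were short, poor in G and C, and lay mostly between genes. In all, 2108 of the 2656 islands touched no annotated gene. Another 278 lay on a transcribed pseudogene, a gene type for which no region was counted, 81 touched a gene shorter than 200 bp, and 189 reached into the edge of a longer gene. Their median length was 600 bp, with quartiles of 400 and 1000 bp and a maximum of 3800 bp, against a median of 1000 bp for islands with a gene region. The median score, which reflects the ratio of ChIP to input reads in an island, was 76.9 against 102.8. The median GC content was 34.75% against 39.75%. These differences are descriptive, since the rule sets a minimum shared length and so favours short islands.

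Scores on both sides of the rule's edge overlapped. The members nearest to a counted region lay 42, 45 and 49 bp from it and had scores of 106.1, 70.2 and 37.0. The islands that held a region through the fewest shared base pairs shared 25, 28 and 41 bp and had scores of 55.8, 113.2 and 73.2.

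The 2 highest-scoring members are shown because their sequences hold repeated or known promoter motifs. Capitals mark a G-box (CACGTG) in the first, and a telobox (AAACCCTA) and a GA repeat (GAGAGAGA), both read on the other strand, in the second.

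chr5:4788401-4788600, TAIR10.1, plus strand: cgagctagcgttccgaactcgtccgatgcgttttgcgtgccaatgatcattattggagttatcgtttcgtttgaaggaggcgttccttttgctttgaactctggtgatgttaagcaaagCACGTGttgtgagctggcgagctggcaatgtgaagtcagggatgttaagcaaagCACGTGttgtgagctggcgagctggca
chr3:16308401-16308600, TAIR10.1, plus strand: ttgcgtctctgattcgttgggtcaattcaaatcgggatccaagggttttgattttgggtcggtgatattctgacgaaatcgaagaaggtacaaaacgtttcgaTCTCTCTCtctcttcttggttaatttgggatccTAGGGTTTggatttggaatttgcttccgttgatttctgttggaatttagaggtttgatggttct

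The island on chromosome 5 had a score of 326 in the merged wild-type list. The wild-type libraries gave 304 and 346 and the *ref4-3* libraries 207 and 274, so the groups did not overlap. This island and the next were chosen for their wild-type score, which favours the wild-type libraries, so these gaps are descriptive. The chromosome 5 island holds a 41-bp unit in 2 copies, each with a G-box, and H3K27me3 covered all 200 bp of it. Close copies of its parts elsewhere in the genome (at least 100 bp at 95% identity) together covered all 200 bp as well, and their part in its score was not tested. The nearest gene, the pseudogene AT5G14810, lies 400 bp away on its 5′ side. The chromosome 3 island scored 279 in the merged wild-type list, with 253 and 300 in the wild-type libraries and 243 and 249 in the *ref4-3* libraries. It reaches into the gene AT3G44763 and was wholly covered by H3K27me3. Across all members, a G-box was found on either strand in the central 200 bp of 4.37%, against 3.05% of the islands with a gene region. A telobox was found in 2.22% against 3.89% and a GA repeat in 3.43% against 4.64%.

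MicroRNA genes were a recurrent kind of member. Most microRNA precursors are too short to hold a 200-bp region, and 241 of the 326 annotated *MIR* genes were under 200 bp. Of the 326 genes, 54 lay in 51 members, 24 had a counted region of their own, 65 lay in an island counted for another gene, and 183 lay in no H2A.Z island. The members held the whole precursor of 48 of these 54 genes. In families with many known relatives in other plants, 37 of 91 genes lay in members, against 17 of 235 in other families. The 2 groups also differed over all H2A.Z islands, so the contrast was not particular to the members. In any H2A.Z island lay 67 of the 91 genes (73.6%) and 76 of the 235 (32.3%). That list of families was drawn up after the *MIR* genes in the members had been seen. Mature sequences from most of the families with several genes among the members are printed to show which genes share a seed. Capitals mark the seed, bases 2 to 8.

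miR156a-5p: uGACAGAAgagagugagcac
miR160a-5p: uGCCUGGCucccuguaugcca
miR165b: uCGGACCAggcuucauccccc
miR166f: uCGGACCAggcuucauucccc
miR172d-3p: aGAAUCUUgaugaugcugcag
miR319a: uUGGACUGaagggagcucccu
miR390a-5p: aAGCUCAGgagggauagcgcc
miR393a-5p: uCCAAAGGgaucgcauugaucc
miR399b: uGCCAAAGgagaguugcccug

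The seed CGGACCA, of the miR165 and miR166 family that acts on HD-ZIP III leaf polarity factors, occurred at 6 genes in members. The seed GACAGAA of miR156, which acts on the SPL factors of vegetative phase change, occurred at 3 genes. The seed GCCUGGC of miR160, which acts on auxin response factors, also occurred at 3 genes. So did UGGACUG of miR319, which acts on TCP factors, and GCCAAAG of miR399, which acts on the phosphate regulator *PHO2*. At *MIR160b* the seed itself lay outside the island, which begins at 9889001, inside the mature sequence (chromosome 4, 9888986 to 9889006). The pairs *MIR390a* and *MIR390b*, *MIR393a* and *MIR393b*, and *MIR172b* and *MIR172d* shared the other seeds printed. Of the families not printed, *MIR164a* and *MIR164c* shared a seed, as did *MIR395a* and *MIR395d*, whereas *MIR169f* and *MIR169h* did not.

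The highest score among *MIR* members belonged to the 400-bp island of *MIR156e* on chromosome 5 (3867001 to 3867400), at 123.7. Both wild-type libraries (122 and 127) scored below both *ref4-3* libraries (137 and 137). With 2 libraries per genotype, such a separation at a single island is descriptive, here and at the islands named below. The island of *MIR166f* (chromosome 5, 17516201 to 17516800) scored 105 and 126 in the wild-type libraries against 94.1 and 110 in those of *ref4-3*, and the groups overlapped. The longest member of all, 3800 bp on chromosome 3 (20585601 to 20589400), holds *MIR172d*, whose product acts on AP2-type flowering repressors. The wild-type libraries gave 78.2 and 107, those of *ref4-3* gave 75.9 and 97.8, and H3K27me3 covered all of it. The islands of *MIR* genes had a median length of 800 bp and overlapped H3K27me3 in 39 of 51 cases (76.5%). Among all members the share was 59.1%, and among members of 800 to 1000 bp 65.0%. Of the 51 islands, 5 (9.80%) were absent from the *ref4-3* merged list, against 20.2% of all members and 12.1% at 800 to 1000 bp. The 5 absent islands were those of *MIR5664*, *MIR775*, *MIR167c*, *MIR166c* and *MIR396b*. Those of *MIR775*, *MIR167c* and *MIR166c* appeared in none of the 4 single-library lists.

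Pseudogenes that are annotated as transcribed made up the class with the highest scores. The 278 members on them reached 265 of the 926 such genes, with a median length of 800 bp and a median score of 112.9, against 73.0 for the 2108 members between genes. They were found in all 4 libraries in 78.8% of cases, against 42.4% between genes, and 55.4% of them overlapped H3K27me3. The 600-bp island on AT1G27560 (chromosome 1, 9571401 to 9572000) scored 265 and 251 in the wild-type libraries and 223 and 270 in the *ref4-3* libraries, so the groups overlapped. A 3200-bp island on *PSEUDOSRKA* (AT4G21370, chromosome 4, 11384401 to 11387600), a decayed copy of the self-incompatibility receptor kinase gene, scored 169 and 163 against 155 and 179. On AT3G24400, listed as *PERK2*, a 3400-bp island (chromosome 3, 8858601 to 8862000) lay wholly under H3K27me3 and shared 2929 bp with the pseudogene. Its scores were 131 and 144 against 127 and 126, with wild type above *ref4-3* in both libraries. Close copies elsewhere in the genome, of at least 100 bp at 95% identity, were found for 8.63% of the members on pseudogenes and for 2.56% of all members.

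Other short RNA genes were rare among the members. Members touched 5 of 625 tRNA genes, 12 of 287 snoRNA genes, which guide chemical changes of other RNAs, and 3 of 82 snRNA genes of the splicing machinery. The highest-scoring tRNA member, 1000 bp on chromosome 1 (4742001 to 4743000), gave 107 and 121 in wild-type libraries and 121 and 133 in *ref4-3* libraries and was wholly covered by H3K27me3. The island at the U2 snRNA gene *U2.6* (AT3G56705) spanned 1600 bp, 1400 bp of it under H3K27me3, and gave 115 and 113 against 98.7 and 106, with both *ref4-3* libraries below wild type.

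Long members also lay between genes, with no gene of any type inside. The longest of these, 3600 bp on chromosome 3 (1807801 to 1811400), ended 270 bp from the 5′ end of *ATCHR12*, a SNF2-type chromatin remodeller gene. H3K27me3 covered all of it, and its scores were 83.4 and 63.1 in the wild-type libraries and 42.1 and 117 in those of *ref4-3*, so the spread within *ref4-3* was wider than the gap between the genotypes. A 3400-bp island 300 bp from the 5′ end of the cytochrome P450 gene *CYP94D2* held 3200 bp of H3K27me3. Another of 3400 bp, 917 bp from *ASL9*, a LOB-domain factor gene, held 1000 bp of H3K27me3, and its scores were 105 and 93.8 against 100 and 94.5.

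H3K27me3 islands of wild type overlapped 1571 of the 2656 members, or 59.1% (95% Wilson interval 57.3 to 61.0%), against 40.0% of all H2A.Z islands and 37.5% of those with a gene region. The intervals cover counting error only, and neighbouring islands are not independent. H3K27me3 covered the whole island for 49.5% of the members and 23.8% of the islands with a gene region. Among members the share with any overlap was higher in each longer class, from 45.1% at 200 bp to 75.8% at 1200 bp or more. For islands with a gene region this share was 26.6% at 200 bp, 21.0% at 400 bp and 52.1% at 1200 bp or more. A longer island has more room to touch an H3K27me3 island, and whole coverage changed less. Among members it was 45.1% at 200 bp and 52.1% at 1200 bp or more, and with a gene region 26.6% at both lengths. The share with any overlap did not follow the score among members. It was 59.5% in the lowest of 4 score classes of the whole list and 57.6% in the highest. For islands with a gene region it was 20.2% in the lowest and 55.4% in the highest. Median length also differed between the score classes. It was 800 bp in the lowest and 600 bp in the highest among members, and 800 and 1000 bp with a gene region. The part of length in these score trends was not tested. The share of members with H3K27me3 was 57.5% and 58.1% in the wild-type libraries and 55.3% and 56.2% in the *ref4-3* libraries. The groups did not overlap, and the difference of -2.00 percentage points had an exact permutation p of 0.33, the smallest that 2 against 2 libraries allow. Islands with a gene region also separated, at 36.5% and 36.6% against 35.7% and 35.5%, so this was not particular to the members. The *ref4-3* H3K27me3 libraries held 5805781 and 8199019 fragments in gene regions and the wild-type ones 7706433 and 8466471. The part of depth in these shares was not tested.

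**Figure D1:**
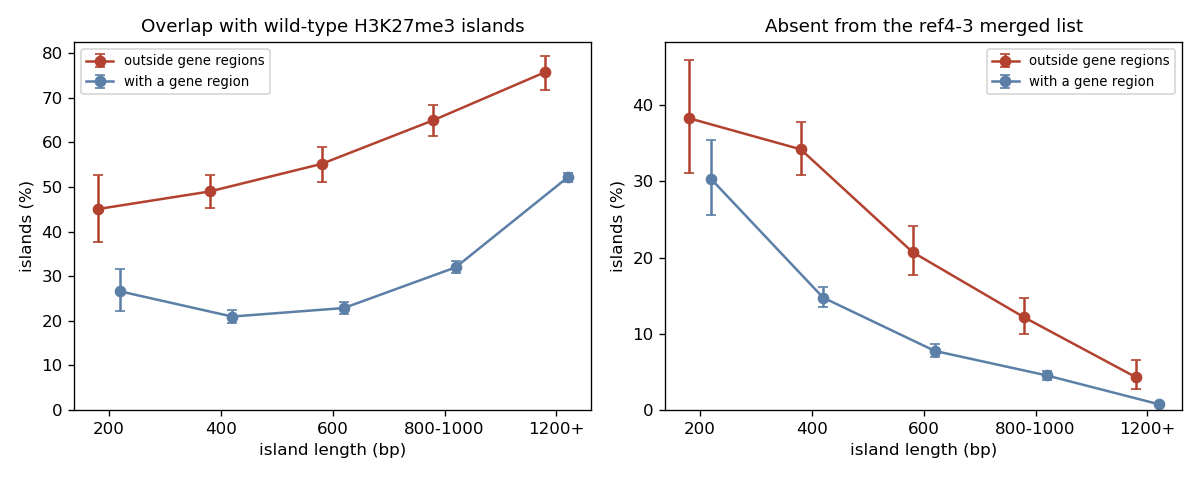
Share of islands (y axis, percent) by island length (x axis, bp) that overlapped a wild-type H3K27me3 island (left) or were absent from the ref4-3 merged H2A.Z list (right), for islands outside gene regions (red) and with a gene region (blue); bars are 95% Wilson intervals. At 1200 bp or more, 75.8% of the islands outside gene regions overlapped H3K27me3 by at least 1 bp and 4.29% were absent from ref4-3. H3K27me3 covered the whole island for 52.1% of them.

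Of the members, 536 (20.2%, interval 18.7 to 21.7%) had no overlap with any island of the *ref4-3* merged list, against 7.05% of all H2A.Z islands and 5.31% of those with a gene region. The share was 38.3% at 200 bp and 4.29% at 1200 bp or more, and 27.6% in the lowest score class and 4.83% in the highest. In each length class it was above that of the islands with a gene region, which were absent in 30.3% of cases at 200 bp and 0.772% at 1200 bp or more. Members with H3K27me3 were absent in 14.9% of cases and those without in 27.8%. Members on transcribed pseudogenes were absent in 7.91% of cases and those between genes in 22.3%. In the other direction, 262 of 2401 *ref4-3* islands outside gene regions (10.9%) were absent from wild type, against 5.25% of all *ref4-3* islands. The 20.2% changed with the libraries behind the lists. It was 16.0% without wild-type replicate 1, 10.9% without wild-type replicate 2, 37.1% without *ref4-3* replicate 1 and 34.8% without *ref4-3* replicate 2.

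Presence in the single libraries showed how far a merged list decides this. Members were found again in 72.9% and 78.9% of cases in the wild-type libraries and in 65.2% and 62.9% in the *ref4-3* libraries. The *ref4-3* values lay below both wild-type values, a difference of -11.8 percentage points (exact permutation p = 0.33, the smallest possible). Wild-type islands with a gene region also separated, at 90.7% and 93.2% against 90.6% and 87.3%. That difference was -3.03 points (exact permutation p = 0.33), so the separation was not particular to the members. Both sets come from the wild-type list, so wild-type libraries are favoured. *ref4-3* islands outside gene regions were found in 74.6% and 78.4% of cases in the wild-type libraries and in 74.6% and 71.6% in the *ref4-3* libraries, a difference of -3.35 points with overlapping ranges (exact p = 0.67). The *ref4-3* H2A.Z libraries held 8863116 and 7848342 fragments in gene regions and the wild-type libraries 9070114 and 10128759, and the part of depth in these differences was not tested. In both wild-type libraries and no *ref4-3* list, single or merged, 86 members (3.24%) were found. The same share was 1.13% for islands with a gene region and 1.38% for all islands. In neither wild-type library list were 307 members (11.6%), against 3.66% of islands with a gene region. In all 4 libraries, 1245 members (46.9%) were found, against 80.7% of islands with a gene region.

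**Figure D2:**
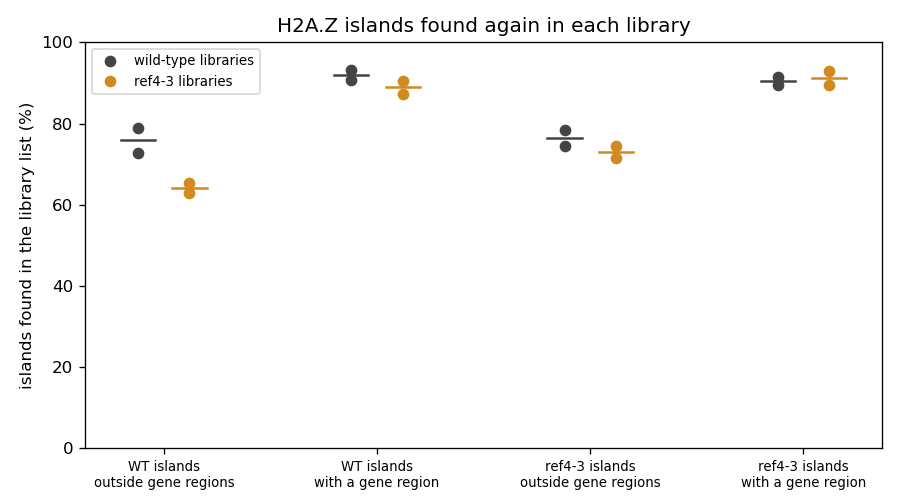
Percent of islands found again in each single-library H2A.Z list (y axis), for the 4 island sets on the x axis; each point is 1 library, black for wild type and orange for ref4-3, and bars are means of 2. Wild-type islands outside gene regions were found in 72.9% and 78.9% of cases in wild type and 65.2% and 62.9% in ref4-3.

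Of the 5 highest-scoring members that were absent from every *ref4-3* list, 3 appeared in neither wild-type library list. The first, on chromosome 1 (17516401 to 17516600), scored 232 over 200 bp of the cytochrome P450 pseudogene *CYP96A7* and was found in neither. The same held for an 800-bp island on the pseudogene *RLP49* (AT4G13900, chromosome 4, 8037401 to 8038200), with a score of 189.9, and for a 200-bp island on chromosome 4 (6171201 to 6171400) with a score of 176.5, which lies 1185 bp from the 3′ end of *LCR13*. A 200-bp island at AT4G32205 (chromosome 4, 15556001 to 15556200) scored 178.3 and appeared in wild-type replicate 2 only, at 171.8. An 800-bp island on the pseudogene AT1G35270 (chromosome 1, 12939601 to 12940400) scored 160 and appeared in both wild-type libraries, at 143 and 174. Close copies elsewhere in the genome covered 113 bp of the *CYP96A7* island and 159 bp of the AT4G32205 island. They covered no part of the others named here. The part of copies in these scores and absences was not tested.

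The members were spread over all 5 chromosomes, at 785, 463, 467, 388 and 553 from chromosome 1 to 5, or 10.7 to 13.0% of each chromosome's islands. Their share of islands was highest where genes were sparse. In 1-Mb bins ordered by protein-coding genes, split into 4 equal classes, it was 20.3% in the poorest class, then 13.8%, 10.8% and 8.32% in the densest. Their number per Mb did not follow that order, at 15.5, 29.2, 24.8 and 19.6.

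Between genes, 781 members lay between divergent genes, 1110 between genes in tandem and 217 between convergent genes. Per Mb of intergenic space this was 58.2, 48.2 and 34.6 members. The nearest gene end was a 5′ end for 1256 of the 2108 (59.6%), and the median gap to the nearest gene was 646 bp over both ends. The share of intergenic space nearest to a 5′ end was not computed, so no preference can be read from the 59.6%. Of that space, 31.4% lay between divergent genes, 53.9% between genes in tandem and 14.7% between convergent genes. H3K27me3 overlapped 65.4% of the members between divergent genes, 58.9% in tandem and 57.1% between convergent genes. Of the nearest protein-coding genes, 45.0% had a counted H3K27me3 region, against 25.8% of all protein-coding genes. This was 60.8% next to members with H3K27me3 and 20.7% next to members without.

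**Figure D3:**
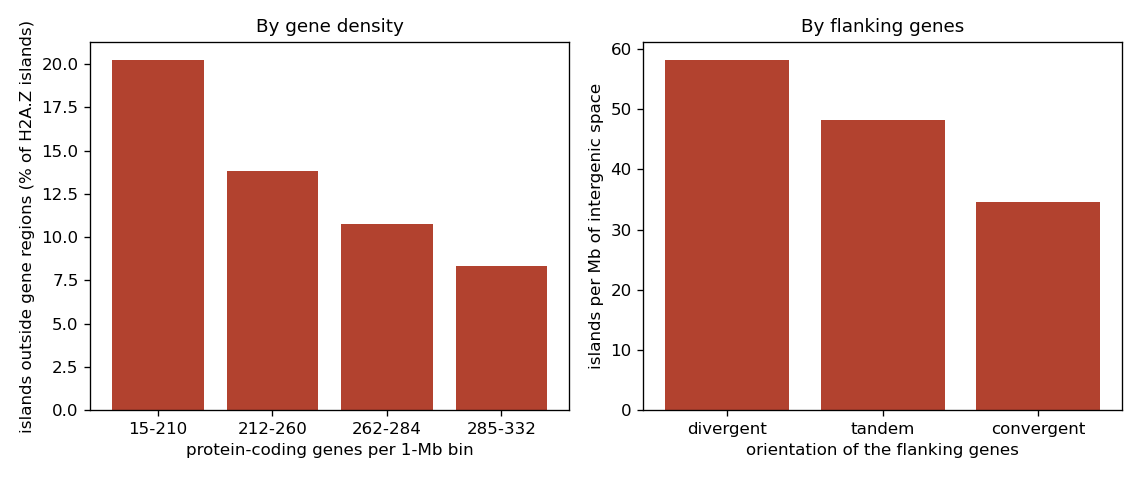
Left, members as a percent of all wild-type H2A.Z islands (y axis) in 4 equal classes of 1-Mb bins ordered by protein-coding genes per bin (x axis). Right, members per Mb of intergenic space (y axis) by the orientation of the flanking genes (x axis); the bars read 58.2, 48.2 and 34.6 from divergent to convergent.

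The members themselves carry no counts, so changes between genotypes were read at the genes within 1000 bp. H2A.Z was tested at 1657 such genes and 57 were called (3.44%), against 4.68% of all 22249 genes tested. Of these, 21 were decreased in *ref4-3* (1.27%, against 1.79% of all genes) and 36 increased (2.17%, against 2.90%). H3K27me3 was tested at 965 genes and 90 were called (9.33%), against 13.2% of all 8286 genes. Of these, 53 were decreased (5.49%, against 7.70%) and 37 increased (3.83%, against 5.52%). A call needed a Benjamini-Hochberg FDR below 0.05 in edgeR's exact test and a fold change above 1.2. All of these shares lay below those of all genes. For DESeq2 and for fits without a library, the share of all genes called is not given. The counts under those settings can therefore not be read as particular to these genes. With DESeq2 1 gene was called for H2A.Z and 27 for H3K27me3. Without wild-type replicate 1 or 2 the H2A.Z calls went to 18 or 7, and the H3K27me3 calls to 43 or 46.

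For H3K27me3 the largest increase was at *BZIP61* (AT3G58120, chromosome 3, 21521201 to 21523200), which encodes a bZIP transcription factor. Scaled to depth (CPM), wild type gave 53.7 and 46.5 and *ref4-3* gave 128 and 136. The log2 fold change was 1.41, with an SE of 0.070 and an FDR of 9.54e-79 in edgeR's exact test. The *ref4-3* libraries lay above both wild-type libraries. H2A.Z over part of the gene (21522401 to 21523200) also increased, from 26.4 and 24.0 CPM to 34.6 and 33.5 CPM (log2 fold change 0.44, edgeR FDR 0.00144), a call that DESeq2 did not make (adjusted p = 0.504). The member 82 bp from its 5′ end (21523601 to 21524400) had a score of 30.0, lacked H3K27me3, and was found in no single-library list and not in the *ref4-3* merged list. The largest decrease was at *ERF15* (AT2G31230, chromosome 2, 13306801 to 13307400), an ethylene response factor gene, with 24.4 and 23.4 CPM in the wild-type libraries against 10.2 and 8.86 CPM in those of *ref4-3* (log2 fold change -1.34, SE 0.15, edgeR FDR 5.97e-15). H2A.Z over *ERF15* stayed uncalled, at 36.5 and 33.9 CPM against 35.0 and 35.1 CPM. The member 428 bp upstream of it was absent from the *ref4-3* merged list but scored 83.5 in *ref4-3* replicate 1.

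At AT5G40800 (chromosome 5, 16334581 to 16336017) H3K27me3 averaged 381 ± 2.23 CPM in wild type and 216 ± 10.15 CPM in *ref4-3* (SD, n = 2), which is -0.83 on the log2 scale (edgeR FDR 4.06e-80). The 400-bp member 380 bp from its 3′ end was covered by H3K27me3, scored 105 and 81.6 in the wild-type libraries and was found in neither *ref4-3* library. For H2A.Z the largest decrease was at *FBH1* (AT1G35460, chromosome 1, 13040001 to 13040600), a bHLH factor gene that acts in flowering, with 18.4 and 19.7 CPM in the wild-type libraries against 13.6 and 10.99 CPM in those of *ref4-3* (log2 fold change -0.62, SE 0.13, edgeR FDR 0.000602; DESeq2 adjusted p 0.437). The pseudogene AT3G30737 averaged 69.1 ± 2.43 CPM in wild type and 47.0 ± 4.78 CPM in *ref4-3* (SD, n = 2), -0.56 on the log2 scale (edgeR FDR 1.48e-10), and DESeq2 called it too (adjusted p 0.00569). The largest H2A.Z increase was at the non-coding gene AT1G04923, with 16.5 ± 0.499 CPM in wild type and 25.3 ± 0.216 CPM in *ref4-3* (SD, n = 2), or 0.62 on the log2 scale (edgeR FDR 4.98e-05; DESeq2 adjusted p 0.191). Genes that overlap each other can share reads, because the counting ignored strand and let a fragment count for each region it overlapped.

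**Figure D4:**
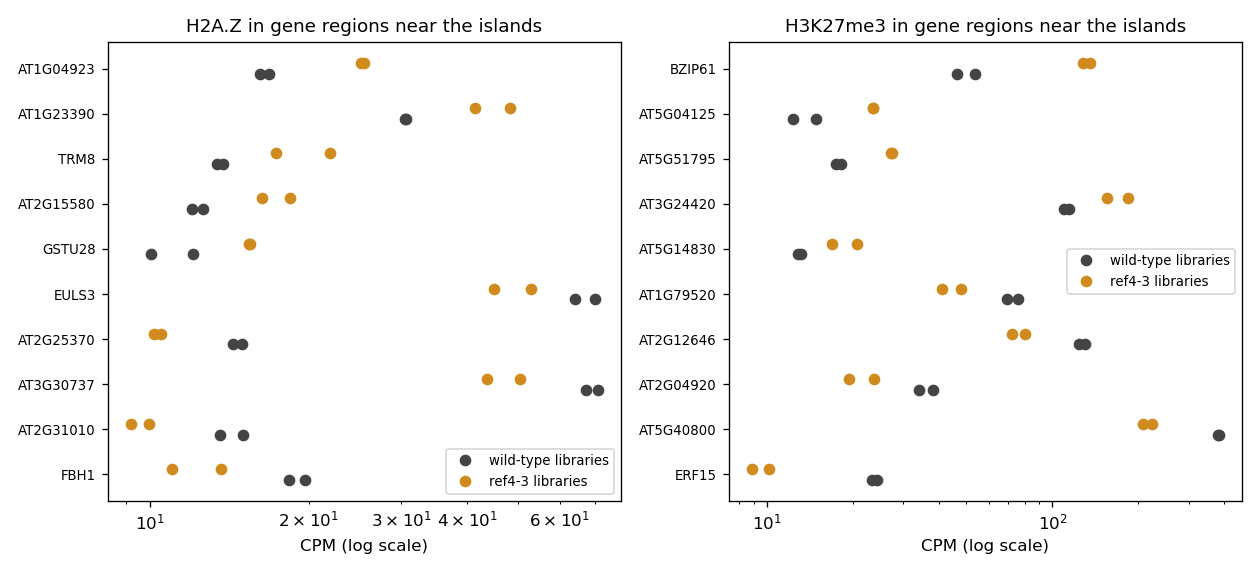
Depth-scaled counts, CPM (x axis, log scale), of H2A.Z (left) and H3K27me3 (right) in gene regions within 1000 bp of a member, for the genes on the y axis with the largest changes in each direction; each point is 1 library, black for wild type and orange for ref4-3. For H3K27me3, BZIP61 lay at 53.7 and 46.5 in the wild-type libraries against 128 and 136 in ref4-3.

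Genes from 6 lists of known regulators were also looked up, and 16 lay within 1000 bp of a member. Among developmental regulators 10 of 58 did (17.2%), against 7.68% of all protein-coding genes. These were the floral genes *LFY*, *SEP3*, *TFL1*, *INO* and *MAF1*, the embryo regulators *LEC1* and *ABI3*, and *WOX2*, *WOX4* and *WOX9*. Of jasmonate genes, 3 of 28 did (*JAZ4*, *MYC2* and *VSP2*). From the other lists, *YAF9A* (1 of 11), *SWN* (1 of 14) and *CBF1* (1 of 14) did, and none of 17 phenylpropanoid genes did. The islands near *LFY*, *WOX2* and *CBF1* were in neither wild-type library list. Those near *SEP3* and *ABI3* were in the list of wild-type replicate 2 and in no other single-library list. The island 993 bp upstream of *MYC2*, the central bHLH factor of jasmonate signalling, was 600 bp long and wholly under H3K27me3. It scored 79.0 and 108 in the wild-type libraries and 75.5 in *ref4-3* replicate 1, and was not listed in replicate 2. The island upstream of *JAZ4*, a repressor in the same pathway, was found in all 4 libraries, at 102 and 46.5 in wild type against 58.5 and 108. No region of the listed genes was called for either mark. The H2A.Z log2 fold changes lay between -0.32 and 0.28 over 19 regions of 15 genes, and those of H3K27me3 between -0.09 and 0.17 over 12 regions of 11 genes. The island next to *SEP3*, wholly H3K27me3 and 677 bp from its 5′ end, scored 69.8 in wild-type replicate 2 and was in no *ref4-3* list, while H3K27me3 over *SEP3* itself went from 533 and 525 CPM in wild type to 574 and 611 in *ref4-3*. That log2 fold change of 0.17 (SE 0.038) had an edgeR FDR of 0.000204 but was under the 1.2-fold threshold.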

How the data were processed

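Libraries from 21-day-old rosettes were prepared for H2A.Z, H3K27me3 and input, with 2 per genotype and mark (12 in all). Per the methods, the authors trimmed reads with fastp 0.23.2, mapped them with Bowtie2 to TAIR10, kept proper pairs with SAMtools 1.17 and called islands in 200-bp windows with epic2. The submitters' notes name SICER. Each island in the deposited lists carries a −log10 p-type value and epic2's score. The deposited gene counts are fragments in regions of at least 200 bp. They were not scaled and strand was ignored. All 24960 H2A.Z regions lay inside the gene of the same name in the TAIR10.1 annotation, so its coordinates, gene types and sequence were used.

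Islands were compared by shared base pairs, and any overlap counted as present. Copies of sequences were sought with blastn 2.17.0. The exact test of edgeR 4.0.16 (R 4.3.3), with TMM factors, was run on the counts and adjusted over all regions. The test was checked on simulated data. DESeq2 1.42.0 was an alternative. Dispersions were first estimated with a design matrix, giving 1061 H2A.Z and 1106 H3K27me3 genes called. edgeR's default for grouped libraries, giving 1042 and 1094, was adopted after both counts had been seen. The study's methods do not state this setting. Near the members the first choice gave 58 and 91 calls and the adopted one 57 and 90.

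Named islands were the highest scoring, the longest, those of each gene type, those absent from every *ref4-3* list and those with most H3K27me3. Ranking by score used the merged wild-type list, which favours wild-type libraries where single-library scores are compared. Named genes were the 5 largest called changes in each direction with a mean count of at least 100 and non-overlapping libraries, and listed genes within 1000 bp. The members, lists and rules were chosen with earlier results of these data known. The labels speak of biological replicates but do not say how plants were divided among libraries, and p-values measure the spread between these libraries.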

Additional observations from a re-analysis of the deposited data

How the results depend on the processing

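The share of members with H3K27me3, 59.1%, was 61.1% for islands touching no gene, and 59.3 to 61.5% when 1 wild-type H2A.Z library list was used alone. The share absent from *ref4-3*, 20.2%, was 22.3% for islands touching no gene, 8.51% for scores at or above the median of the list and 22.9% when less than 50% coverage counted as absent. It ranged from 10.9 to 16.0% with a single wild-type list and from 34.8 to 37.1% with a single *ref4-3* list, so it moves with the list used. Members numbered 705 at or above that median score. Their median score was 73.0 for islands touching no gene, 121 at or above the median and 85.3 to 87.5 in a single wild-type list, whose median lengths were 600 and 800 bp. The difference in islands found per library ranged from -14.9 to -8.79 points when a library was left out. H2A.Z calls, 57 of 1657 genes, became 1 with DESeq2 and 4 at 1.5-fold. They were 33 of 831 genes within 500 bp and 93 of 2701 within 2000 bp. H3K27me3 calls, 90 of 965 genes, became 27 with DESeq2 and 17 at 1.5-fold. They were 51 of 458 genes within 500 bp and 157 of 1558 within 2000 bp. Shares over all genes are not given for DESeq2, 1.5-fold or a left-out library, so those counts are not particular to these genes. Leaving out a library gave 7 to 65 H2A.Z and 43 to 124 H3K27me3 calls. Dispersions from a design matrix, which were run first, gave 58 and 91, and the default reported was adopted after both counts had been seen. With the replicate number as a block, 54 H2A.Z and 93 H3K27me3 calls were made. Deviations of same-numbered libraries correlated at -0.025 and 0.072 for H2A.Z and H3K27me3 and no label ties the numbers, so they were not taken as pairs. The causes of these changes were not tested. With 2 libraries per group no difference between genotypes in island shares could reach a p below 0.33.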
